A study of Homo sapiens with 2 samples.

Results

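Wnt pathway genes were examined in U87, a long-established line of human glioblastoma cells labelled wild type, after 72 h with CCA-1.1 or with its vehicle DMSO. The 45 genes were chosen by name from the pathway, as ligands, receptors, antagonists, destruction complex members and TCF/LEF factors, out of 41582 genes in the table. There was 1 library per condition, so differences are between 2 libraries, cannot be set against a spread between replicates, and were not tested. The labels and methods used here give no CCA-1.1 concentration for the sequenced cells, and CCA-1.1 is described as a curcumin analog. U87 is a single cell line, and the values describe it alone. Levels are in TPM, a unit that scales reads by transcript length and library total, and the transcripts of a gene were summed. The number of reads behind a value is unknown, and a gene listed at 0 may be present below detection. Differences, given in brackets or by name, are log2(TPM + 1) with CCA-1.1 minus log2(TPM + 1) with DMSO; adding 1 TPM shrinks the differences of weakly expressed genes.

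Wnt proteins are secreted lipid-modified ligands that bind frizzled receptors, and in the canonical branch also the co-receptors LRP5 and LRP6. Without a ligand, a destruction complex of AXIN, APC, GSK3 and casein kinase marks beta-catenin (CTNNB1) for degradation. With a ligand, Dishevelled proteins are recruited to the membrane, beta-catenin accumulates, and TCF/LEF factors activate target genes. Other Wnt ligands, WNT5A among them, use ROR and RYK receptors beside frizzleds to act on cell movement and polarity. This branch has been linked to invasion of glioblastoma cells.

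The cell label was checked against markers of glial and mesenchymal glioblastoma lines, of which 5 of 7 had an average of at least 1 TPM. VIM, an intermediate filament of mesenchymal cells, was at 3217 TPM with DMSO and 3106 TPM with CCA-1.1, and CD44, an adhesion receptor, was at 607.4 and 472.6 TPM. The astrocyte marker GFAP was at 0.41 and 0.57 TPM, and S100B, also an astrocyte marker, was listed at 0 in both libraries, so these defining astrocyte markers were near or at 0. The glial progenitor factor OLIG2 was at 5.64 and 7.03 TPM, the stem cell factor SOX2 at 1.87 and 1.45 TPM, and the progenitor filament NES at 7.53 and 7.62 TPM. Of 8 markers of other cells, SYT1, RBFOX3, PECAM1 and CD14 averaged at least 1 TPM, and the 8 summed to 19.3 TPM with DMSO and 18.9 TPM with CCA-1.1. SYT1, a synaptic vesicle protein, held most of it, with 11.4 and 11.5 TPM.

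Of the 45 Wnt pathway genes, 33 had an average of at least 1 TPM over both libraries and 12 were below it. None of the 33 differed by more than 2-fold in either direction, against 1.89% of the 15485 genes at this level that were higher and 1.67% that were lower in CCA-1.1. A smaller limit of 0.32 on the log2(TPM + 1) scale was also used, at which TPM + 1 is 25% higher or 20% lower. Both limits apply to TPM + 1, so the TPM of a weakly expressed gene must differ by more to pass. Past it, 0 of the 33 genes were higher, against 11.5% of all genes, and 2 were lower (6.06%), against 6.88%. The 2 genes were FZD7 and WNT5A. The median difference of the 33 genes was -0.01 on the log2(TPM + 1) scale, with 14 above 0 and 19 below, and that of all 15485 genes was 0.03. Among the 14 genes with an average of at least 10 TPM, 1 was past the smaller limit in the lower direction, against 4.56% of all genes at that level, and none in the higher direction, against 6.17%. Among the 19 genes between 1 and 10 TPM, 1 was lower, against 9.76%, and none was higher, against 18.1%. The absence of genes past 2-fold lay near the small shares of all genes, and the share of lower genes past 0.32 near that of all genes. Whether the absence of higher ones past 0.32 is particular to the list was not tested.

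**Figure D1:**
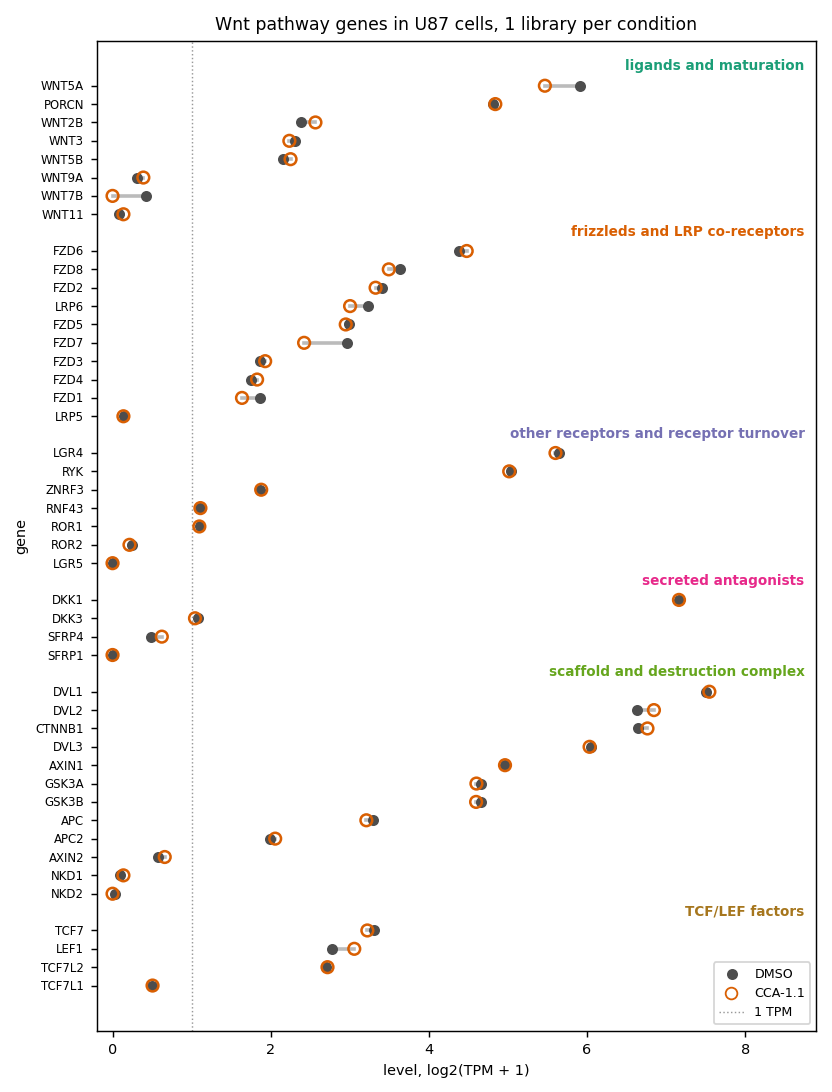
Level of each of the 45 Wnt pathway genes as log2(TPM + 1) on the x axis, ordered within roles by mean level on the y axis. Filled points are the DMSO library and open points the CCA-1.1 library (1 library each), and the widest gaps among genes above 1 TPM (dotted line) are those of FZD7 and WNT5A.

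**Figure D2:**
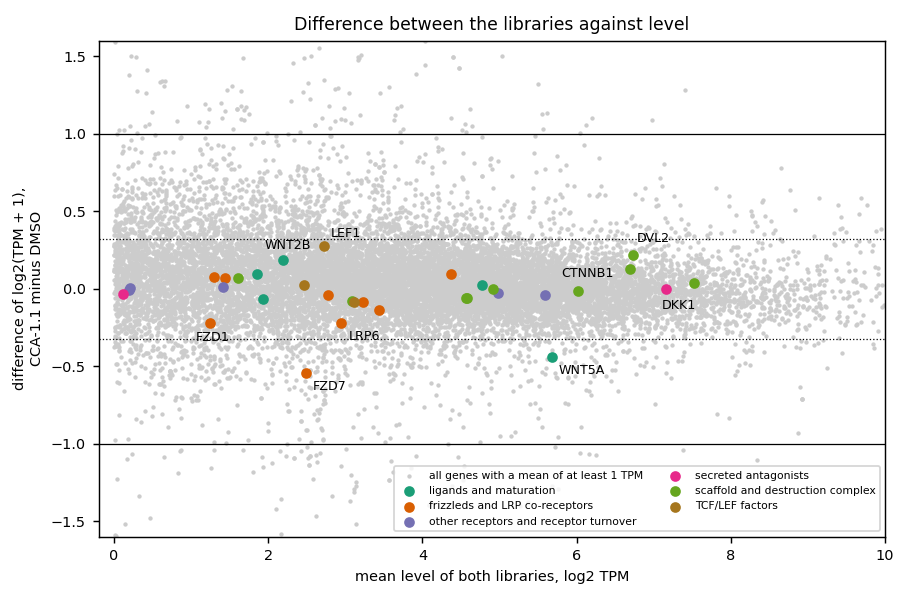
Difference of log2(TPM + 1), CCA-1.1 minus DMSO, against mean level in log2 TPM for the 33 Wnt pathway genes with an average of at least 1 TPM (coloured by role) and all genes at that level (grey). Solid lines mark 2-fold, dotted lines 0.32, and 491 genes lie outside the axes; the coloured points sit inside the grey cloud, with FZD7 and WNT5A below the lower dotted line.

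WNT5A, the main ligand of the non-canonical branch, was by far the most abundant ligand of the list. It was at 59.1 TPM with DMSO and 43.2 TPM with CCA-1.1, a difference of -0.44 and a ratio of 0.731. In GRCh38.p14 the gene spans bases 55465715 to 55505263 of chromosome 3. WNT5A made up 82.9% of the TPM of the 7 ligands in DMSO and 77.2% with CCA-1.1. The summed level of these ligands was 71.4 TPM with DMSO and 56.0 TPM with CCA-1.1, and WNT5A alone differed by -15.9 TPM.

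The table lists 20 transcripts of WNT5A, of which 7 had an average of at least 1 TPM. The curated transcript NM_003392.7, the most abundant, was at 25.5 TPM with DMSO and 21.1 TPM with CCA-1.1. A second curated transcript, NM_001256105.1, was at 19.4 and 10.6 TPM, a difference of -0.82, and accounted for 55.7% of the lower TPM of the gene. Together these transcripts accounted for 83.0% of it. The predicted transcript XM_011534089.2 was at 4.70 TPM with DMSO and 1.57 TPM with CCA-1.1, a difference of -1.15 that is past 2-fold, and accounted for 19.7%. Not all transcripts moved downward, since the predicted XM_017007127.2 was at 4.43 and 4.79 TPM. Since Kallisto assigns shared reads to transcripts by estimation, the value of a single transcript is less certain than the sum of the gene.

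WNT5A has 2 start sites in the RefSeq promoter table, and the 250 bases before each are shown because this gene had the widest difference among the abundant genes of the list. Transcripts were not assigned to these starts. Some may begin at neither, since the gene reaches base 55505263, upstream of both on its strand. The first window is chr3:55487307-55487556 and the second chr3:55481399-55481648, both on the minus strand of GRCh38.p14 and written 5′ to 3′. Both were searched on both strands for CTTTGA and CTTTGT, cores of sites that TCF/LEF factors bind, and neither holds a match, so no letters are in capitals.
WNT5A, first start: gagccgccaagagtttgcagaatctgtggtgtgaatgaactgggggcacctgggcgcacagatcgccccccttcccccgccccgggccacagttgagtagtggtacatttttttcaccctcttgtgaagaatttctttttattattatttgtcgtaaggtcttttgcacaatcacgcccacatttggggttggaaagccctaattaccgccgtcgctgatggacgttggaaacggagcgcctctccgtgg
WNT5A, second start: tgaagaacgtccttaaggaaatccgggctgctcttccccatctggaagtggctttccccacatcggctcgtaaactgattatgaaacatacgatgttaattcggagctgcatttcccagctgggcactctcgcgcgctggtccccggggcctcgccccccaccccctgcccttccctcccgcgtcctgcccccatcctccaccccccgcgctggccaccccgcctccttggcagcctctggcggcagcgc
No match says only that these letters are not in these windows.

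The other ligands were low. WNT2B, a canonical ligand, was at 4.20 TPM with DMSO and 4.92 TPM with CCA-1.1, a difference of 0.19. WNT3, also a canonical ligand, was at 3.93 and 3.71 TPM (-0.07), and WNT5B, the close relative of WNT5A, was at 3.45 and 3.76 TPM (0.10). Their differences were within 0.32. WNT7B was at 0.34 TPM with DMSO and listed at 0 in CCA-1.1, so no fold is given. WNT9A was at 0.24 and 0.31 TPM and WNT11 at 0.06 and 0.10 TPM, all below the level of 1 TPM. PORCN, the enzyme that attaches the lipid Wnt ligands need for secretion, was at 27.1 TPM with DMSO and 27.6 TPM with CCA-1.1, a difference of 0.03.

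All 8 frizzled receptors had an average of at least 1 TPM, and FZD7 was the one with a difference past 0.32. FZD7 was at 6.83 TPM with DMSO and 4.36 TPM with CCA-1.1, a difference of -0.55 and a ratio of 0.638, and it has a single listed transcript, NM_003507.2. It spans bases 202033855 to 202038441 of chromosome 2 in GRCh38.p14. FZD1, which belongs to the same subgroup of frizzleds, was at 2.63 and 2.11 TPM (-0.22), and FZD2, the last of that subgroup, was at 9.64 and 9.03 TPM (-0.09). All of this subgroup was thus lower in the CCA-1.1 library, but FZD1 and FZD2 by less than 0.32 on the log2(TPM + 1) scale. FZD8 was at 11.4 TPM with DMSO and 10.3 TPM with CCA-1.1 (-0.14), and FZD5, its close relative, was at 6.95 and 6.72 TPM (-0.04). FZD6, which acts mainly in planar polarity, was the most abundant frizzled, with 19.9 and 21.3 TPM (0.09). FZD3, its relative, was at 2.63 and 2.81 TPM (0.07), and FZD4, which also serves as the receptor of norrin, was at 2.37 and 2.55 TPM (0.08). The 8 receptors summed to 62.3 TPM with DMSO and 59.1 TPM with CCA-1.1. In this sum the share of FZD6 was 31.9% with DMSO and 36.0% with CCA-1.1, and that of FZD7 was 11.0% and 7.37%. The main FZD6 transcript, NM_003506.4, was at 14.7 TPM with DMSO and 14.6 TPM with CCA-1.1. The FZD6 transcript NR_133921.2, whose NR_ identifier marks a non-coding RNA, was at 4.56 and 6.05 TPM.

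Of the LRP co-receptors, LRP6 was expressed and LRP5 was close to 0. LRP6 was at 8.37 TPM with DMSO and 7.02 TPM with CCA-1.1, a difference of -0.22. Its curated transcript NM_002336.3 was at 4.24 and 3.94 TPM (-0.09). The predicted XR_002957325.2, whose XR_ identifier marks a non-coding RNA, was at 3.84 and 2.64 TPM (-0.41). It held 45.9% of the gene in DMSO and 37.6% with CCA-1.1. It differed by -1.20 TPM, and the whole gene by -1.35 TPM. LRP5 was at 0.11 and 0.10 TPM over its 12 listed transcripts, so LRP6 made up 98.7% of the pair in DMSO and 98.6% with CCA-1.1. Across the 9 frizzleds and co-receptors above 1 TPM, the median difference was -0.09, with 3 above 0 and 6 below.

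RYK, a receptor tyrosine kinase-like Wnt receptor, was at 32.0 TPM with DMSO and 31.4 TPM with CCA-1.1 (-0.03). ROR1, a receptor of WNT5A, was at 1.15 and 1.14 TPM (-0.01), and ROR2, the other ROR receptor, was at 0.19 and 0.16 TPM. Counting curated transcripts only, ROR1 was at 1.13 TPM and 0.57 TPM, below an average of 1 TPM. RYK was therefore the one abundant gene among these 3 receptors in both libraries.

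Receptor turnover is set by R-spondins, their LGR receptors and the ubiquitin ligases RNF43 and ZNRF3, which remove frizzleds from the cell surface. LGR4 was at 48.9 TPM with DMSO and 47.5 TPM with CCA-1.1 (-0.04), while LGR5, a stem cell marker and Wnt target, was listed at 0 in both libraries. RNF43 was at 1.15 and 1.16 TPM (0.01) and ZNRF3 at 2.65 and 2.68 TPM (0.01). In each of these genes the libraries differed by less than 0.05 on the log2(TPM + 1) scale.

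DKK1, a secreted inhibitor that binds LRP6 and is itself a target of beta-catenin and TCF, was the second most abundant gene of the list. It was at 142.6 TPM with DMSO and 142.2 TPM with CCA-1.1, a difference of -0.0034. Its single listed transcript is NM_012242.4, and the gene lies on chromosome 10 from 52314281 to 52317657. DKK1 made up 99.0% of the TPM of the 4 secreted antagonists in DMSO and 98.9% with CCA-1.1. DKK3, a divergent family member, was at 1.11 and 1.06 TPM (-0.03), SFRP4, a decoy receptor for Wnt ligands, was at 0.40 and 0.54 TPM, and SFRP1, a related decoy, was listed at 0 in both libraries.

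The 250 bases before the DKK1 start are shown because DKK1 was the one gene of the list whose window held both CTTTGA and CTTTGT, and because its level barely differed. The window is chr10:52314031-52314280 on the plus strand of GRCh38.p14, and capitals mark the matches on either strand.
DKK1: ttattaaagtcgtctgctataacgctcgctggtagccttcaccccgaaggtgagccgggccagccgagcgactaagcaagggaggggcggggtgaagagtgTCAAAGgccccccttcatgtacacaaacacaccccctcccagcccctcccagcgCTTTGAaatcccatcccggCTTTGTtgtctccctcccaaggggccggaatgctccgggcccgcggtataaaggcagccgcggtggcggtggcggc
The matches are CTTTGA at bases -95 to -90 and, on the opposite strand, at -149 to -144, and CTTTGT at -76 to -71, counted from the start. Windows were found in RefSeq for 32 of the 45 genes, 42 windows in all, and 8 of them (19.0%) held at least 1 of the motifs, against 22.8% of the 35116 windows of all genes. Both motifs were in 1 of the 42 windows (2.38%), against 2.14% of all windows. The other windows with a match belonged to TCF7, FZD1, ROR2, TCF7L2, RNF43 (both of its windows) and PORCN. A match is a run of letters and not a site shown to be bound. No window was found for WNT7B, WNT11, FZD2, FZD3, FZD6, FZD7, LRP6, LGR5, ZNRF3, DKK3, SFRP1, NKD1 and AXIN2.

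The Dishevelled scaffolds were abundant. DVL1 was the most abundant gene of the list, at 180.9 TPM with DMSO and 186.0 TPM with CCA-1.1 (0.04). DVL2 was at 97.9 and 114.0 TPM, a difference of 0.22, the widest upward difference among the 14 genes with an average of at least 10 TPM and still within 0.32. DVL3 was at 65.2 and 64.4 TPM (-0.02). The share of DVL2 in the sum of the Dishevelleds was 28.5% with DMSO and 31.3% with CCA-1.1. NKD1 and NKD2, feedback inhibitors that bind Dishevelled, were at 0.07 and 0.10 TPM and at 0.02 and 0 TPM.

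Beta-catenin, CTNNB1, on chromosome 3 from 41199505 to 41240443, was at 98.7 TPM with DMSO and 107.7 TPM with CCA-1.1, a difference of 0.12. Its transcript NM_001098209.2 was at 53.0 and 51.9 TPM, NM_001098210.2 at 28.9 and 35.0 TPM and NM_001904.4 at 13.6 and 17.3 TPM. NM_001098210.2 and NM_001904.4 were thus higher with CCA-1.1, and NM_001098209.2 was not. Beta-catenin is regulated mainly as a protein, which was not measured here.

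The destruction complex had almost equal levels in both libraries. AXIN1, its scaffold, was at 30.2 TPM in both (-0.0023), and its relative AXIN2, a feedback target of the pathway, was at 0.49 TPM with DMSO and 0.58 TPM with CCA-1.1. APC, the tumour suppressor that holds beta-catenin in the complex, was at 8.78 and 8.25 TPM (-0.08), and APC2, its neuronal relative, was at 2.96 and 3.16 TPM (0.07). GSK3A, one of the kinases that phosphorylate beta-catenin, was at 24.3 and 23.3 TPM (-0.06), and GSK3B, the other, was at 24.2 and 23.2 TPM (-0.06). Each GSK3 gene held close to 50% of the TPM of the pair, with 50.05% for GSK3A in DMSO and 50.08% with CCA-1.1. Over the 9 scaffold and destruction complex genes above 1 TPM, the median was -0.0023 as a difference.

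Of the TCF/LEF factors, which bind beta-catenin at target genes, LEF1 had the widest difference. LEF1 was at 5.87 TPM with DMSO and 7.32 TPM with CCA-1.1, a difference of 0.28, just within 0.32 and the highest of the 33 genes. Counting curated transcripts only, LEF1 was at 1.35 TPM and 2.44 TPM, a difference of 0.55, past 0.32. The predicted transcript XM_005263048.1 held 47.2% of the gene in DMSO and 48.1% with CCA-1.1. TCF7 was at 8.91 and 8.33 TPM (-0.09), TCF7L2 at 5.47 and 5.58 TPM (0.02), and TCF7L1, which often acts as a repressor, at 0.41 and 0.42 TPM. The share of LEF1 in the sum of the 4 factors was 28.4% with DMSO and 33.8% with CCA-1.1, and that of TCF7 was 43.1% and 38.5%. Counting curated transcripts only, TCF7 held 43.4% and 38.5% and TCF7L2 held 43.3% and 41.1%, so the leading factor with CCA-1.1 was then TCF7L2.

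**Figure D3:**
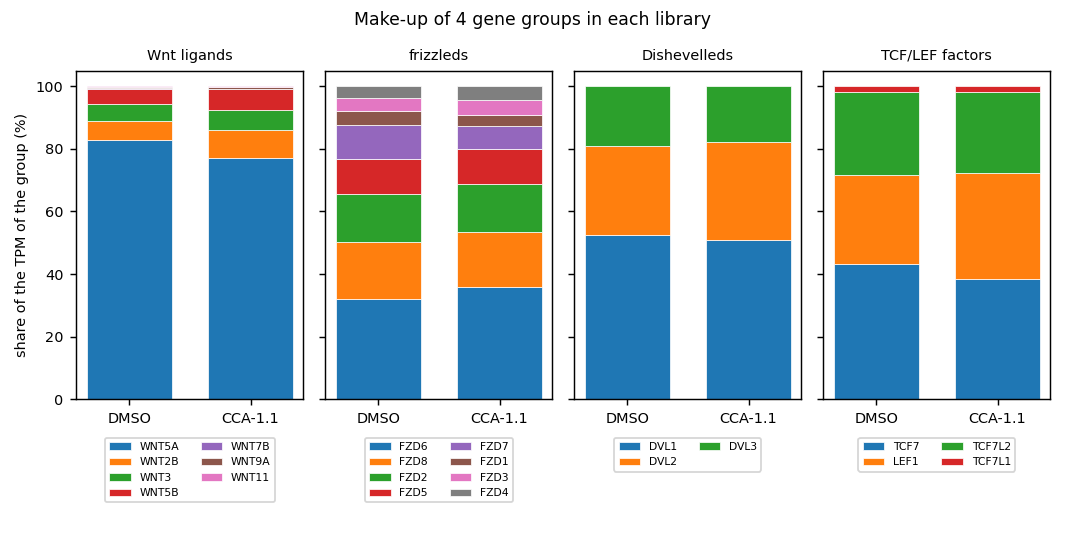
Share of each gene (%, y axis) in the summed TPM of the 7 Wnt ligands, 8 frizzleds, 3 Dishevelleds and 4 TCF/LEF factors in the DMSO and CCA-1.1 libraries (1 library each, no error bars). WNT5A holds 82.9% and 77.2% of the ligands, and, with all transcripts summed, the leading gene of each group is the same in both libraries.

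The 45 genes have 271 listed transcripts, of which 114 were at 0 in both libraries and 65 had an average of at least 1 TPM. Past 2-fold, 3 of the 271 (1.11%) were higher and 3 (1.11%) were lower in CCA-1.1, against 1.17% and 1.07% of all 177816 transcripts. They belong to 4 genes, and in APC2 and DKK3 there was 1 in each direction. APC2 transcript NM_001351273.1 was at 1.59 TPM with DMSO and listed at 0 in CCA-1.1, whereas XM_006722609.4 went from a listed 0 to 2.94 TPM with CCA-1.1. In DKK3, XM_047426775.1 was at 1.11 TPM with DMSO and listed at 0 in CCA-1.1, and NM_001018057.2 was at 0 with DMSO and 1.06 TPM with CCA-1.1. The summed level of both genes moved by less than 0.1 on the log2(TPM + 1) scale. DVL2 transcript XM_047435518.1 was at 0.54 TPM with DMSO and 2.58 TPM with CCA-1.1, a difference of 1.22, and the remaining one is the WNT5A transcript XM_011534089.2 described above.

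The leading transcript was the same in both libraries in 20 of the 24 genes with several listed transcripts and an average of at least 1 TPM. Exceptions were ROR1, ZNRF3, DKK3 and APC2. ZNRF3 has 2 listed transcripts, and NM_001206998.2 held 52.5% of the gene in DMSO and 20.5% with CCA-1.1, at a nearly equal sum. In ROR1, NM_001083592.2 held 53.0% with DMSO and 44.7% with CCA-1.1, where XM_017001377.2 led with 47.4%. Each of these 4 genes had a mean below 10 TPM. The part of Kallisto's division of shared reads in these shares was not tested.

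Further genes of the pathway, 75 in 5 lists that hold none of the 45, were taken as a comparison, and LGR6 and DKK2 are in 2 of the lists. Of these, 43 had an average of at least 1 TPM, none was past 2-fold, and past 0.32, 2 were higher (4.65%, against 11.5% of all genes) and 8 were lower (18.6%, against 6.88%). Among all genes, 9.76% of those between 1 and 10 TPM were lower past 0.32, and 4.56% of those at 10 TPM or more. The median difference of the 43 genes was -0.07. Of 12 other ligands, WNT10B was the one with an average of at least 1 TPM, at 1.57 TPM with DMSO and 0.95 TPM with CCA-1.1 (-0.40), and 4 were listed at 0 in both libraries.

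Of 19 other receptors, secretion genes and antagonists, 4 had an average of at least 1 TPM, and all 4 were lower in CCA-1.1. KREMEN1, a receptor of DKK1, was at 2.71 and 1.83 TPM (-0.39), the one of this list past 0.32. WLS, which carries Wnt ligands to the cell surface, was at 93.3 and 88.5 TPM (-0.08), PTK7, a co-receptor of the non-canonical branch, at 58.7 and 48.9 TPM (-0.26), and the R-spondin RSPO3 at 5.47 and 4.35 TPM (-0.27).

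Among 22 other destruction complex and nuclear genes, 21 had an average of at least 1 TPM, with a median difference of 0.04. TLE3, a co-repressor that binds TCF factors, was at 4.05 TPM with DMSO and 2.48 TPM with CCA-1.1 (-0.54), and PYGO1, a co-activator of beta-catenin, was at 2.55 and 3.52 TPM (0.35). The casein kinase CSNK1A1, part of the destruction complex, was at 86.7 and 88.4 TPM (0.03). Of the planar polarity genes, 6 of 9 had an average of at least 1 TPM, with a median of 0.03. PRICKLE2, a cytoplasmic polarity protein, was the one past 0.32, at 12.3 and 9.03 TPM (-0.40), and VANGL1, a membrane partner of it, had the highest difference, with 5.05 and 5.48 TPM (0.10).

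Of 15 genes often used as transcriptional targets of the pathway, 11 had an average of at least 1 TPM. Past 0.32, 4 were lower (36.4%, against 6.88% of all genes) and 1 was higher (9.09%, against 11.5%), and the median difference was -0.21, with 10 below 0. BIRC5, or survivin, a mitotic and anti-apoptotic protein, was at 2.15 TPM with DMSO and 1.14 TPM with CCA-1.1 (-0.56), and CCN4, a matricellular protein, was at 4.42 and 2.97 TPM (-0.45). Both averaged between 1 and 10 TPM, where 9.76% of all genes were lower past 0.32, against 4.56% at 10 TPM or more. TWIST1, a mesenchymal transcription factor, was at 22.0 and 16.9 TPM (-0.36), and the difference of CD44, with the levels given above, was also -0.36. MYC, a growth regulator, went the other way, at 21.1 and 31.6 TPM (0.57). Each of these genes also answers to other pathways. Of the feedback targets of beta-catenin, AXIN2, NKD1 and LGR5 were below 1 TPM as given above, as was SP5, a transcription factor induced by Wnt, at 0.16 and 0.39 TPM. DKK1, also a target as given above but not in this list, was at 142.6 and 142.2 TPM (-0.0034). The list holds none of the Wnt pathway genes examined first, so any targets among those do not enter its median or its shares. Expressed genes left out in this way include LEF1 (0.28), RNF43 (0.01), ZNRF3 (0.01) and TCF7 (-0.09). The 33 Wnt pathway genes with an average of at least 1 TPM had a median difference of -0.01, with 14 above 0 and 19 below. Whether targets of the pathway moved together was not tested.

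**Figure D4:**
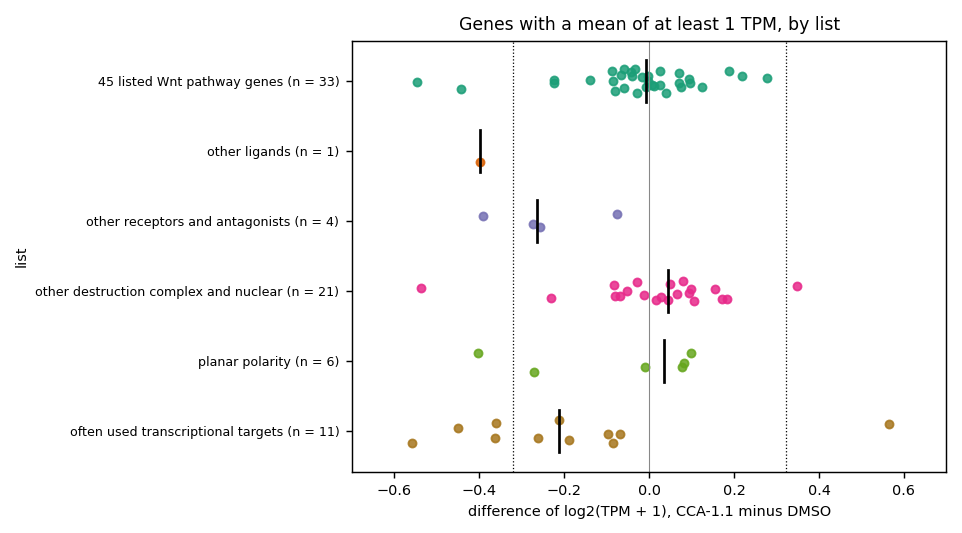
Difference of log2(TPM + 1), CCA-1.1 minus DMSO (x axis), for genes with an average of at least 1 TPM in each list (y axis, number of genes in brackets), with black bars for the median and dotted lines at 0.32 and -0.32. Points are genes from 1 library per condition and not replicates; the bar of the often used transcriptional targets lies at -0.21 and that of the Wnt pathway genes at -0.01.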

How the data were processed

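Total RNA of U87 cells was enriched for mRNA and sequenced by the authors, with 1 library for DMSO and 1 for CCA-1.1. According to the methods and processing notes, reads were checked with FastQC 0.11.9 and MultiQC 1.1, and transcripts were quantified with Kallisto against GRCh38.p14. The deposited values are TPM with 2 decimals, and their columns sum to 999999 and 1000000; the unit was inferred from this. Read depth is unknown. Of 177816 transcripts, 169966 matched a gene symbol in a RefSeq table of GRCh38.p14, and TPM were summed per gene. The genes and lists were chosen with earlier results of these data known. Genes with an average of at least 1 TPM were compared as differences of log2(TPM + 1), with limits of 2-fold and of 0.32 (log2) and without a test. Named were all members, member transcripts past 2-fold that reached 1 TPM, and related genes past 0.32 or at the end of their list; others were named after their values were seen. The calculation was tested on simulated data, with changes well past 2-fold in genes of at least 10 TPM. That check does not cover the limit of 0.32, weaker genes or the assignment of shared reads. Promoter windows are from RefSeq. Alternatives were another pseudocount, other filters, curated transcripts and median-ratio scaling. Python 3.11.15, numpy 2.4.6, pandas 2.3.3 and matplotlib 3.10.9 were used. Columns without a sample: 0.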

Additional observations from a re-analysis of the deposited data

How the results depend on the processing

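No library could be left out. No paired analysis was possible because each condition had a single library. No member passed 2-fold under a pseudocount of 0.1 TPM, no filter, a minimum mean of 10 TPM, curated transcripts (NM_ and NR_ identifiers) or median-ratio scaling (a factor of 1.0056). Medians of members, roles and related lists moved by less than 0.1 in 52 of 58 recomputed values, and shares by less than 5 percentage points in 58 of 72.

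With curated transcripts only, 1 member (LEF1) was higher past 0.32 (log2), and 1 of 126 member transcripts was higher and 1 lower past 2-fold (0.794% each), against 1.33% and 1.3% of all 82805 curated transcripts. The curated sums of APC2 (1.59 and 0 TPM, -1.37) and DKK3 (0 and 1.06 TPM, 1.04) were past 2-fold. Both were below an average of 1 TPM and did not enter. ROR1 (1.13 and 0.57 TPM, -0.44), past 0.32, and FZD3 (0.92 and 0.90 TPM, -0.02) dropped out in the same way. Fewer transcripts enter each sum there. The shares in DMSO and CCA-1.1 were then 59.3% and 59.0% for DVL1, 15.8% and 17.2% for DVL2, 24.9% and 23.8% for DVL3, 10.7% and 17.95% for LEF1, 43.4% and 38.5% for TCF7, 43.3% and 41.1% for TCF7L2, 84.7% and 100% for APC, and 15.3% and 0% for APC2. With a minimum mean of 10 TPM, 1 member was lower past 0.32, since FZD7 is below it, and the medians were -0.21 for ligands and maturation and -0.16 for planar polarity. With no filter, the medians were 0 for other ligands, 0 for other receptors and antagonists and -0.10 for target genes, as genes near 0 enter. With a pseudocount of 0.1 TPM, the median of other ligands, a single gene, was -0.67, and 14 of 271 member transcripts (5.17%) were higher and 17 (6.27%) lower past 2-fold, against 8.16% and 7.43% of all transcripts. With a transcript minimum of 1 TPM, 2 of 65 member transcripts (3.08%) were higher and 1 (1.54%) lower past 2-fold, against 3.66% and 3.38% of all 34503 transcripts at that minimum. With no pseudocount, which was added after the data had been seen, FZD7 differed by -0.65. Values near 0 are the least certain, since their read numbers are unknown.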
